A study of Mus musculus with 12 samples.

Results

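GABA-A receptor subunit genes were followed in RNA sequencing of the prefrontal cortex of adult male C57BL/6J mice that had received cocaine in adolescence, against mice that had received saline. The 7 genes, taken by name from the 28842 genes of the deposited table, were Gabra2, Gabra3, Gabra4, Gabra5, Gabrb1, Gabrb2 and Gabrd, and all 7 passed the filter for low expression. They are 7 of 17 genes of the receptor family in the table. Between postnatal days 28 and 42 the cocaine group received the drug at 15 mg/kg, and the saline group received saline. As adults, both groups went through conditioned place preference, which measures the time an animal spends where it was given a drug: a pre-test (day 75), training under 1 mg/kg cocaine (days 76 and 77) and the final test (day 78), with brains taken 30 to 60 min later. So the saline animals were not free of cocaine as adults. There were 6 libraries per group, and since the labels do not tie libraries to separate mice, p-values here rest on the spread from library to library.

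GABA-A receptors are chloride channels made of subunits around a central pore, and GABA opens them to inhibit neurons. Most hold alpha and beta subunits, which form the GABA binding site between them, together with a gamma or a delta subunit. Receptors with a gamma subunit gather at synapses and carry fast inhibition, whereas receptors with delta, often beside alpha4 in the forebrain, lie outside synapses and carry a steady, tonic current. In cortex the alpha subunit also sets how the receptor responds to benzodiazepines, since alpha4 and alpha6 lack the residue these drugs need.

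No subunit gene was found to differ between the cocaine and the saline group, and the main feature of the family in these libraries was instead a wide spread of Gabrb2, and to a lesser degree Gabrb1, inside both groups. In limma, run on log2(value + 1) over 13016 genes with Benjamini-Hochberg adjustment, 0 of the 7 genes passed an adjusted p of 0.05, and the share of all tested genes that passed was 0 percent. At an unadjusted p under 0.05 there were 0 of 7, against 1.14 percent of all genes (149 of 13016). None of the 7 had groups that did not overlap, against 0.0768 percent of all genes. Count tests on reads recovered from the table also called 0 of the 7. Over all genes they called 0 of 16057 (edgeR, 253 at an unadjusted p under 0.05) and 3 (DESeq2, 428 at an unadjusted p under 0.05). All 7 differences, cocaine minus saline, were above 0 on the log2 scale, with a median of 0.05, and 53.7 percent of all tested genes were above 0 with a median of 0.01. In bulk tissue, fewer cells of a type and less RNA per cell cannot be told apart.

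**Figure D1:**
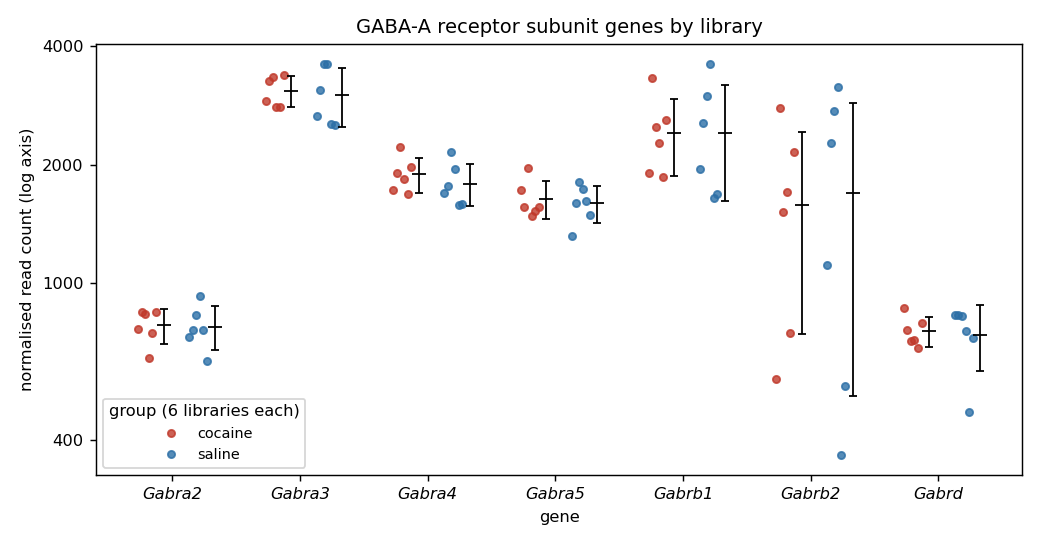
Normalised read count of each subunit gene in every library (points), on a log axis, with cocaine to the left of saline in each gene and the group mean ± SD in black (n = 6 each). The groups overlap in all 7 genes, and Gabrb2 has the widest spread of the 7, between 569 and 2790 in cocaine libraries and between 365 and 3145 in saline libraries.

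Depth was alike, with 17.7 ± 0.697 M reads per cocaine library and 17.8 ± 1.18 M per saline library (SD, n = 6 each). Markers of excitatory cortical neurons and of interneurons were present in every library, with summed counts that overlapped between groups. The 8 markers of myelinating oligodendrocytes summed to between 50639 and 200564 in cocaine libraries and between 34097 and 243182 in saline libraries. The choroid plexus marker Ttr, the carrier of thyroid hormone in cerebrospinal fluid, stood at 11208 in saline library 5 and at 13.2 or less in every other library. The labels name a mesenchymal stem cell line and a human genome build, which do not match the tissue or the mouse gene IDs. A label tag of day 0 or day 5 switches with each replicate number. It was used here to look within each tag and as a covariate in an alternative fit.

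Among the alpha genes, Gabra2 encodes a subunit of many synaptic receptors, also found at the start of the axon of pyramidal neurons. C57BL/6J mice are known to carry a small deletion in an intron of Gabra2 that lowers its product, which both groups share by strain. Gabra2 (ENSMUSG00000000560) spans 70957597 to 71095849 of chromosome 5, minus strand (GRCm38, as are all positions). Its normalised read count was 644 at the lowest, 800 at the median and 847 at the highest in cocaine libraries, against 633, 761 and 927 in saline libraries. The saline range enclosed the cocaine range. The difference was 0.02 ± 0.10 on the log2 scale (SE, 95% interval -0.20 to 0.23; limma adjusted p = 1.00).

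Gabra3 encodes a synaptic subunit that is abundant in monoaminergic neurons and in deep cortical layers, and it is the X-linked member here (ENSMUSG00000031343, minus strand, 72432681 to 72656848). Cocaine libraries had 2806 at the lowest, 3087 at the median and 3375 at the highest, and saline libraries had 2522, 2883 and 3616. Here too the saline range was the wider one and enclosed the other. The difference was 0.05 ± 0.11 (log2, SE; 95% interval -0.18 to 0.28; limma adjusted p = 1.00).

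Gabra4 and Gabra5 encode subunits of mainly extrasynaptic receptors. The alpha4 subunit joins delta in tonic inhibition of thalamus and dentate gyrus, and alpha5, best known from hippocampus, carries tonic current in pyramidal cells. Gabra4 (chromosome 5, minus strand, 71569749 to 71658308) stood at 1687, 1875 and 2215 in cocaine libraries (lowest, median, highest) and at 1584, 1734 and 2152 in saline libraries. Gabra5 (chromosome 7, minus strand, 57407672 to 57510059) stood at 1484, 1563 and 1959 in cocaine libraries and at 1321, 1611 and 1808 in saline libraries. For Gabra4, 4 of 6 cocaine libraries lay above the saline median, and for Gabra5, 2 of 6. The differences were 0.08 ± 0.09 for Gabra4 (log2, SE; 95% interval -0.12 to 0.28) and 0.04 ± 0.09 for Gabra5 (-0.16 to 0.24), both with a limma adjusted p of 1.00. Gabra4 is a head-to-head neighbour of Gabrb1, and their annotated exons share 46 bases on opposite strands. Gabra5 shares 148 exon bases with the antisense gene Gm9962. The strand setting of the counting is not given in the sources used here, so reads in these stretches cannot be assigned to a strand.

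Gabrb1 and Gabrb2 encode beta subunits, which line the other side of the GABA site and carry signals for receptor assembly and trafficking. Gabrb1 (chromosome 5, plus strand, 71658113 to 72149037) stood at 1867, 2385 and 3314 in cocaine libraries (lowest, median, highest) and at 1650, 2251 and 3601 in saline libraries. Its group means were 2410 ± 534 in cocaine and 2405 ± 786 in saline libraries (SD, n = 6 each), and the difference was 0.04 ± 0.20 (log2, SE; 95% interval -0.39 to 0.46; limma adjusted p = 1.00). The coefficient of variation of Gabrb1 was 22.2 percent in the cocaine group and 32.7 percent in the saline group.

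Gabrb2 (ENSMUSG00000007653, chromosome 11, plus strand, 42419757 to 42629028) stood at 569, 1612 and 2790 in cocaine libraries and at 365, 1692 and 3145 in saline libraries. Both groups held libraries at a low count and libraries at several times that count. The means were 1581 ± 840 in cocaine and 1696 ± 1179 in saline libraries (SD, n = 6 each), a ratio of means of 0.932. On the log2 scale the difference had the other sign, 0.10 ± 0.54 (SE; 95% interval -1.06 to 1.27; limma adjusted p = 1.00). The interval reaches from 0.478-fold to 2.41-fold, so changes inside that interval are not excluded by these libraries. Within the label tags of day 0 and day 5 (3 libraries per group in each) the difference was -0.26 and 0.46. Gabrb2 means were 946 in cocaine and 1404 in saline libraries of day 0, and 2216 and 1988 in those of day 5. Saline library 3 (day 0), at 2736, and saline library 6 (day 5), at 547, went the other way. The part of the tag in the spread of Gabrb2 was not tested. In the authors' deposited table the log2 fold change of Gabrb2 is -0.10.

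Gabrd encodes the delta subunit, the partner that marks extrasynaptic receptors sensitive to neurosteroids. Gabrd (chromosome 4, minus strand, 155384980 to 155398112) stood at 683, 740 and 864 in cocaine libraries and at 470, 790 and 831 in saline libraries. The lowest saline value came from library 5, the library with the high Ttr count, and the part of that in its Gabrd value was not tested. The difference was 0.05 ± 0.13 (log2, SE; 95% interval -0.22 to 0.33; limma adjusted p = 1.00), and without saline library 5 it was -0.07. The exact permutation test over the 924 assignments of libraries to groups gave p = 0.857 for Gabrd and between 0.390 and 0.872 for the other 6 genes (two-sided).

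**Figure D2:**
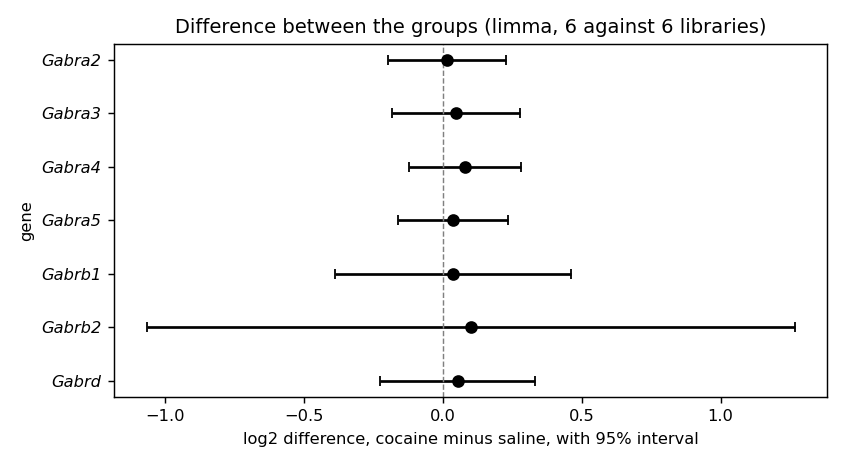
Difference of each subunit gene between the groups, cocaine minus saline, on the log2(value + 1) scale (points), with the 95% interval from limma (bars). All 7 intervals include 0, and that of Gabrb2, from -1.06 to 1.27, is the widest.

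Levels between genes were compared per length, as FPKM computed from the deposited values and gene lengths over all 12 libraries. Gabra3 was the most abundant of the 7 (44.0 ± 4.66 FPKM, SD, n = 12), followed by Gabra5 (30.9 ± 3.02), Gabra4 (17.2 ± 1.68), Gabrd (14.7 ± 1.96), Gabrb2 (14.4 ± 8.33), Gabrb1 (9.83 ± 2.37) and Gabra2 (5.77 ± 0.528). Gabra3 exceeded Gabra5, Gabra5 exceeded Gabra4 and Gabrb1 exceeded Gabra2 in 12 of 12 libraries. Gabra4 exceeded Gabrd in 10 of 12. Gabrd and Gabrb2 could not be ordered, since Gabrd was higher in 6 of 12 libraries, and Gabrb2 exceeded Gabrb1 in 8 of 12. Among these neighbours in the order, the ranges were separate for Gabra5 over Gabra4 and for Gabrb1 over Gabra2.

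**Figure D3:**
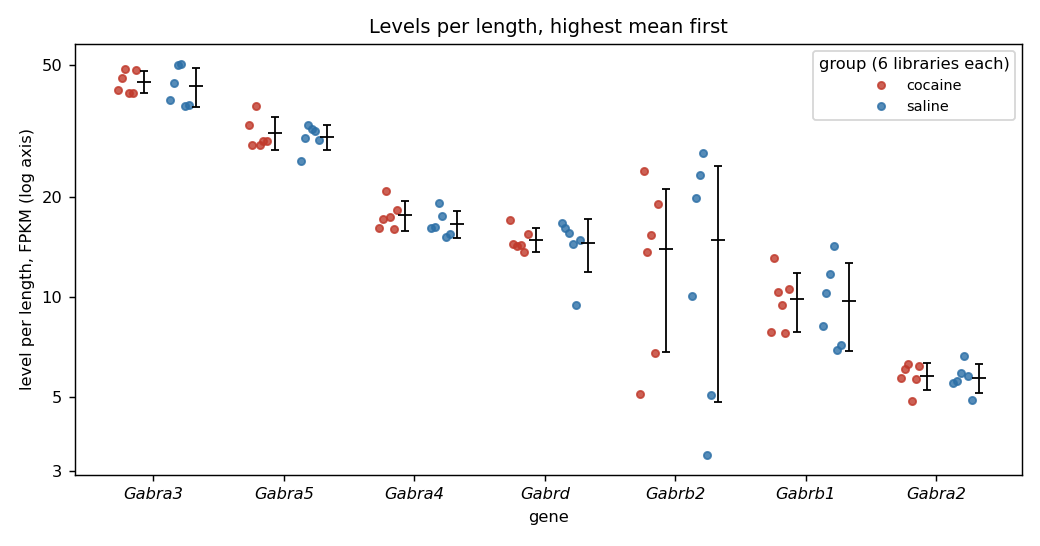
Level per length of each subunit gene, in FPKM on a log axis, in every library (points), cocaine left of saline, with the group mean ± SD in black (n = 6 each). Gabra3 stands highest with a mean of 44.0 FPKM and Gabra2 lowest with 5.77, and Gabrb2 crosses the levels of Gabrd and Gabrb1.

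The mix of the 4 alpha messages was alike in both groups. Of the summed FPKM of the 4 alpha genes, Gabra3 made up 44.9 ± 1.75 percent in cocaine and 45.0 ± 2.08 percent in saline libraries (SD, n = 6 each), and Gabra5 made up 31.5 ± 2.06 percent in cocaine and 31.7 ± 2.20 percent in saline libraries. Gabra4 made up 17.8 ± 0.804 percent in cocaine and 17.4 ± 0.803 percent in saline libraries, and Gabra2 made up 5.84 ± 0.371 percent in cocaine and 5.97 ± 0.413 percent in saline libraries. Of the summed FPKM of Gabrb1 and Gabrb2, Gabrb2 took 55.7 ± 10.5 percent in cocaine and 54.6 ± 14.5 percent in saline libraries. That share varied more between libraries than those of the alpha genes.

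Gabrb2 stood near the top of well-expressed genes in its spread between libraries. Its SD over the 12 libraries was 1.06 on the log2 scale, rank 8 of the 6695 tested genes with a mean count of at least 500, for which the median SD was 0.19. The highest library exceeded the lowest 8.61-fold. Gabrb1 had an SD of 0.38 (rank 465, 2.18-fold) and Gabrd one of 0.23 (1.84-fold), whereas the 4 alpha genes had SDs from 0.15 to 0.19 and ranges of 1.40-fold to 1.48-fold. For Gabrb2, each group held libraries near the bottom and near the top of this range.

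The spread of Gabrb2 moved with a property of each library that was measured on other genes. For each library a length index was taken as the median log2 deviation of the tenth of genes with the longest transcripts (6871 bases or more) minus that of the tenth with the shortest (1308 bases or less), 1162 genes each, with all receptor subunit genes left out. The index ranged from -0.57 to 0.52 in cocaine libraries and from -0.65 to 0.62 in saline libraries. It was positive in most libraries tagged day 5 and negative in most tagged day 0. Saline library 3 (day 0, index 0.48) and saline library 6 (day 5, index -0.47) went the other way. Saline library 5, with the lowest index of -0.65, had the lowest Gabrb2 count of 365, and cocaine library 1, at -0.57, had 569. At the other end, saline library 4, at 0.62, had 3145 and cocaine library 2, at 0.52, had 2790. By the GENCODE M21 lengths used for the index, Gabrb2 itself is not in the tenth with the longest transcripts. Its longest coding transcript has 3989 bases, against 13737 for Gabrb1, 5852 for Gabra2, 4108 for Gabra4, 3662 for Gabra3, 2671 for Gabra5 and 1921 for Gabrd. The order of the subunits by their correlation with the index, given next, was not their order by these GENCODE lengths. Transcript lengths from RefSeq, in which Gabrb2 ends 3563 bases further 3' than in the deposited table, were not compared.

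Across the 12 libraries Gabrb2 correlated with the index at r = 0.975 and rho = 0.979 (permutation p = 1e-05 each, the smallest the resamples can give; adjusted over all 13016 tested genes, 0.000167 for r and 0.000270 for rho). The r was 0.986 within the cocaine group, 0.987 within the saline group, 0.963 and 0.973 within the label tags of day 0 and day 5, and 0.966 without the 2 libraries of most extreme index. Gabrb1 gave r = 0.943 and rho = 0.958 (adjusted permutation p = 0.000167 and 0.000384), with 0.934 within the cocaine and 0.967 within the saline group. For Gabra3 the values were r = 0.807 and rho = 0.783 (adjusted permutation p = 0.00811 and 0.0125), with r = 0.614 within the cocaine and 0.945 within the saline group. With Gabra4 (r = 0.687, adjusted permutation p = 0.0345), 4 of 7 genes passed 0.05 by r and 4 by rho. Over all tested genes, in either direction, 49 percent passed by r and 46.6 percent by rho. These shares include the 1162 longest and 1162 shortest genes that made the index, from which the subunits were left out. Following the index was thus common in these libraries, and the count of 4 is not shown to be particular to the subunits. Gabra2, at r = 0.573 (adjusted permutation p = 0.0923), Gabra5, at r = 0.141 (adjusted permutation p = 0.738), and Gabrd, at r = 0.471 (adjusted permutation p = 0.167), did not pass. What sets the index was not tested.

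**Figure D4:**
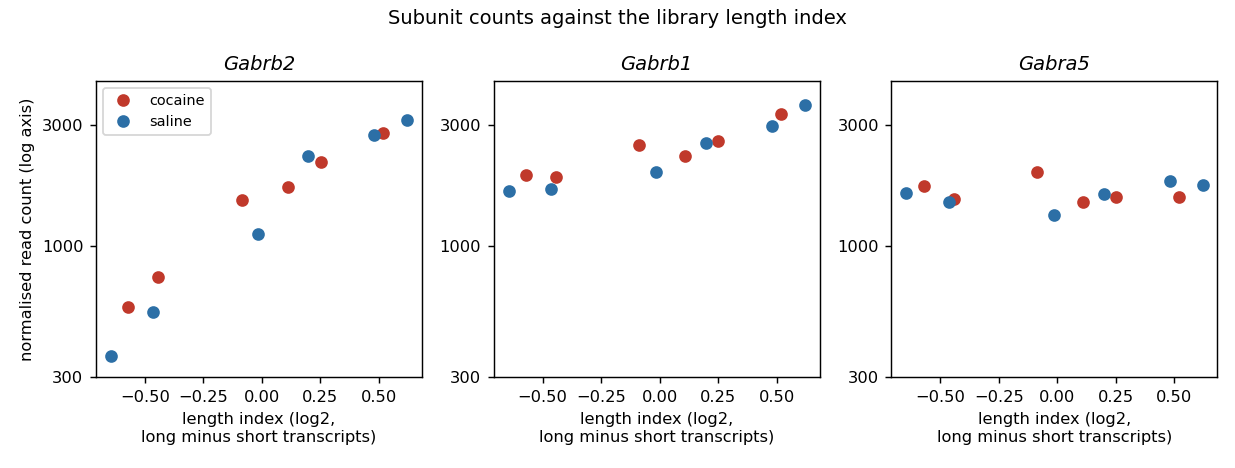
Normalised read count (log axis) of Gabrb2, Gabrb1 and Gabra5 against the length index of each library, in log2 units, with cocaine and saline libraries in separate colours (n = 6 each). Gabrb2 climbs along the index in both groups (r = 0.975 over 12 libraries), Gabrb1 less steeply (r = 0.943), and Gabra5 shows no such slope (r = 0.141).

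With the index as a covariate in limma, an alternative added after the data had been seen, the difference of Gabrb2 was 0.26 ± 0.11 (log2, SE; limma unadjusted p = 0.030, adjusted p = 0.998), and that of Gabrb1 was 0.09 ± 0.07 (adjusted p = 0.998). The other 5 differences lay between 0.03 and 0.10. The standard error of Gabrb2 was thus smaller than the 0.54 without the covariate, and the adjusted p still did not pass. The share of all tested genes with a small unadjusted p in this fit was not counted.

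The 3' end of Gabrb2 differs between the deposited table and RefSeq. The RefSeq gene runs 3563 bases beyond the 3' end of the gene in the deposited table, against 535 bases for Gabrb1, 15 for Gabra4, 5 for Gabra3, 3 for Gabra5 and 1 for Gabrd. In Gabra2 the RefSeq end lies 795 bases short of the table's end. Over 706 tested genes whose RefSeq end lies more than 1000 bases beyond that in the table, the median r with Gabrb2 was 0.518, against -0.05 for 9424 genes whose ends agree within 100 bases. The median slope of the 706 genes was 0.09 log2 units per log2 unit of Gabrb2, against -0.008 for the 9424 genes. Their median SD was 0.27 on the log2 scale, against 0.21 for the 9424 genes. Gabrb2 was singled out for its wide spread, so its own slope and SD are no measure for these medians. The 200 tested genes with the highest correlation with Gabrb2 had a median transcript of 5349 bases, and the 200 with the lowest had one of 1063 bases, against 3231 bases over all 11614 genes with a known length. These are correlations across genes measured in the same libraries, and genes are not independent replicates. Because Gabrb2 followed an index built from long and short transcripts, the lengths of its 200 highest and 200 lowest correlates are no separate result. The gene model used for counting is not given in the sources used here, and its part in the spread of Gabrb2 was not tested.

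The start regions of Gabrb2, Gabra3 and Gabra2 are shown as examples of genes that differ in how far they followed the library index (r = 0.975, 0.807 and 0.573). That of Gabra5, which followed the index least, is not printed. Each sequence is the 250 bases before a transcript start given by RefSeq (GRCm38.p6), 5' to 3' on the gene's strand, with matches to the searched motifs in capitals, and no window printed holds a base of an exon in GENCODE M21. For Gabra3 and Gabra2 the start is that of the gene. For Gabrb2 it is the most upstream of 3 transcript starts in the table of start regions, and the window lies inside the gene, whose RefSeq span begins at 42419515. The motifs were TATAAA (the TATA box), GGGCGG (the GC box bound by SP1), TGACGTCA (the cyclic AMP response element) and GCGTGGGCG (the EGR site), searched on both strands. The Gabrb2 window is chr11:42420190-42420439 (plus strand), that of Gabra3 is chrX:72656920-72657169 (minus strand) and that of Gabra2 is chr5:71095850-71096099 (minus strand).
Gabrb2: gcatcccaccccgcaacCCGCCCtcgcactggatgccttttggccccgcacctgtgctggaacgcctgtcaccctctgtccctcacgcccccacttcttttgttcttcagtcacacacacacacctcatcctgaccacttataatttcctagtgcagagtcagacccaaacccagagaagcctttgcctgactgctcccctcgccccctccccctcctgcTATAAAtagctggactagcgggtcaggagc
Gabra3: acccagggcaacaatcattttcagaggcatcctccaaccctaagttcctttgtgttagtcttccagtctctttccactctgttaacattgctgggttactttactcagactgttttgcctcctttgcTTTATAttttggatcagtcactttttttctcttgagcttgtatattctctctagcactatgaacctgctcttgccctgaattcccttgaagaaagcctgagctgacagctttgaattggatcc
Gabra2: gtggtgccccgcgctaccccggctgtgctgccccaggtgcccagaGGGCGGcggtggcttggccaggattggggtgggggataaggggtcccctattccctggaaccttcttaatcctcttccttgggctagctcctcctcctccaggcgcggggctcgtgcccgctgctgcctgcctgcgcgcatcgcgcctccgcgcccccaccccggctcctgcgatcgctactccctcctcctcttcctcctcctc

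The Gabrb2 window printed holds a TATAAA near its 3' end and a GC box, read on the opposite strand, near its 5' end. The other 2 Gabrb2 windows, chr11:42420524-42420773 and chr11:42420951-42421200, hold none of the motifs. Gabra3 holds a TATAAA on the opposite strand, and Gabra2 holds a GC box. GC content was 58.8 percent in the Gabrb2 window shown, 42.4 percent in that of Gabra3 and 70.0 percent in that of Gabra2. Of 32851 RefSeq windows of this length, 12.4 percent hold a TATAAA, 32.7 percent a GC box, 1.55 percent a cyclic AMP response element and 0.536 percent an EGR site. Windows were found for 6 of the 7 genes, and over all 10 windows 2 genes had a TATAAA, 3 had a GC box and 0 had either of the other motifs. These matches are descriptions of the letters and say nothing of binding.

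The subunit genes also moved with each other across libraries. Of the 21 pairs, 20 had a positive r, with a median of 0.624, and 9 passed 0.05 after adjustment over the 21 (permutation test of Pearson's r), or 11 by Spearman's rho. The lowest r that passed was 0.651, reached by 42.9 percent of these pairs and by 10.7 percent of all pairs of tested genes, of which 49.9 percent were positive, with a median r of -0.0012. High correlations were thus widespread in these libraries. The lowest pair that passed, Gabra4 with Gabra5, did not pass by rho (adjusted permutation p = 0.119). Its r was 0.249 without the 2 libraries farthest from the Gabra4 median. The highest r was that of Gabrb1 with Gabrb2 (r = 0.941, rho = 0.979; adjusted permutation p = 0.000420). It was 0.923 within the cocaine group, 0.949 within the saline group, 0.948 and 0.936 within the label tags of day 0 and day 5, and 0.938 without the 2 most extreme libraries. Gabra3 followed Gabrb1 (r = 0.916), Gabra4 (r = 0.885), Gabrb2 (r = 0.850) and Gabra2 (r = 0.832). Gabrd passed with none of the other 6 (r from -0.02 to 0.541). The median r was 0.465 within the cocaine and 0.744 within the saline group. It was 0.503 without the 2 libraries farthest from the median of the first gene of each pair.

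**Figure D5:**
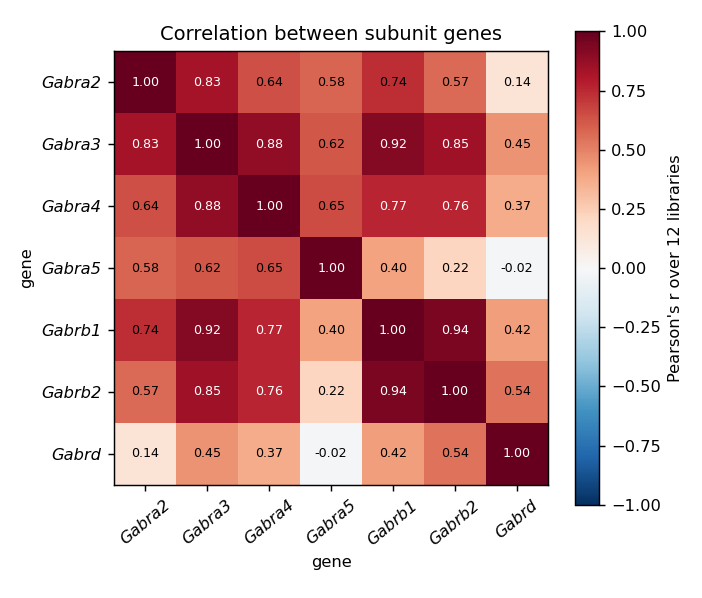
Pearson's r of log2(value + 1) between each pair of subunit genes over the 12 libraries, in colour and number. The block of Gabra3, Gabrb1 and Gabrb2 is the reddest, with Gabrb1 and Gabrb2 at 0.941, and the row of Gabrd is the palest.

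With each gene adjusted for the length index, 7 of the 21 pairs passed. The share of all pairs of tested genes after the same adjustment was not counted, so the 7 cannot be called particular to the subunits. Gabrb1 with Gabrb2 then stood at r = 0.290 (adjusted permutation p = 0.503), whereas Gabra3 with Gabra5 stood at r = 0.874 (adjusted permutation p = 0.00315) and Gabra5 with Gabrb1 at r = 0.812 (adjusted permutation p = 0.0111). No pair with Gabrb2 or with Gabrd passed after this adjustment.

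The genes whose pattern was most like each subunit were taken by Pearson's r over the 12 libraries, each gene centred on its group mean, among 11538 genes. For Gabrb2 they were Aff2 and Arel1 (both r = 0.995), and 1265 genes exceeded an r of 0.9. For Gabrb1 they were Nhsl2 (r = 0.993) and Dip2c (r = 0.991), with 1126 genes over 0.9. Gabra3 was most like Napb (r = 0.988) and Zbtb18 (r = 0.985), and Gabra4 was most like Cadm2 (r = 0.979) and Esrrg (r = 0.974), with 491 and 222 genes over 0.9 for Gabra3 and Gabra4. The remaining subunits had few such genes. Gabra5 had 8, led by Ppp2r2b (r = 0.941) and Bnip3 (r = 0.930), Gabra2 had 5, led by Gpr89 (r = 0.933) and Tunar (r = 0.922), and Gabrd had 1, Tm6sf1 (r = 0.912), followed by Chrm4 (r = 0.870).

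Among other subunits of the receptor, Gabrg1 and Gabrg3, which encode gamma subunits, passed no test either. Gabrg1 stood at 273, 324 and 442 counts in cocaine libraries (lowest, median, highest) and at 264, 320 and 462 in saline libraries, a difference of -0.01 ± 0.15 (log2, SE; limma adjusted p = 1.00). Gabrg3 had 791 ± 92.1 in cocaine and 829 ± 128 in saline libraries (SD, n = 6 each), a difference of -0.06 ± 0.11 (limma adjusted p = 1.00). Gabre, Gabrq, Gabrr1, Gabrr2 and Gabrr3 were below the filter, each with a mean under 1 FPKM, and Gabra6 and Gabrp were not found by name in the deposited table.

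Of 23 genes of receptor clustering, assembly and trafficking, 9 were above and 14 below 0, with a median of -0.02. None passed the adjusted p, and 1 had an unadjusted p under 0.05. Over all tested genes, 53.7 percent were above 0, with a median of 0.01, and 1.14 percent had an unadjusted p under 0.05. The gene of the list with such a p was Mdga1, a membrane protein that binds neuroligins and restrains synapse formation. It stood at 92.6, 149 and 242 in cocaine libraries (lowest, median, highest) and at 174, 202 and 225 in saline libraries, with a difference of -0.43 ± 0.18 (log2, SE; limma adjusted p = 1.00). The cocaine range enclosed the saline range. Next by p were Plcl1, a partner of the receptor in trafficking (-0.19 ± 0.18), and Lhfpl3 (-0.13 ± 0.14), and Gphn, the gephyrin scaffold of inhibitory synapses, differed by 0.02 ± 0.07.

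Of 11 genes of GABA synthesis and transport, GABA-B receptors and chloride transport, 2 were above and 9 below 0, with a median of -0.04, and 0 passed in limma (0 at an unadjusted p under 0.05). Over all tested genes 53.7 percent were above 0, and genes of a list are not independent replicates. Slc32a1, the transporter that loads GABA into vesicles, had 1278 ± 117 in cocaine and 1370 ± 120 in saline libraries (log2 -0.10 ± 0.08). Gad2 and Gad1, the enzymes that make GABA, differed by -0.14 ± 0.15 and -0.07 ± 0.09. Slc12a5, the chloride exporter that makes GABA inhibitory in adult neurons, differed by 0.00 ± 0.12. All limma adjusted p-values of these genes were 1.00.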

How the data were processed

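Prefrontal cortex RNA was sequenced in 12 libraries, 6 per group by the treatment label. The authors deposited 1 table for the series with a value per gene and library, gene length, log2 fold change, p-value and adjusted p-value, per the file headers. The file name says FPKM, but the deposited values are a signal, read counts divided by a size factor: in every library 100 percent were whole multiples of 1 read within 0.01 read. Per the submitters' processing notes, HISAT2 2.0.5 was used. The sources used here give neither the read counter nor its strand setting or annotation. Recovered reads were 16.7 to 19.9 M per library.

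FPKM was computed here from the value, gene length and column sum. The 13016 genes with a mean of at least 1 FPKM were tested with limma 3.58.1 (R 4.3.3) with a variance trend, on log2(value + 1), two-sided, with Benjamini-Hochberg adjustment and a threshold of 0.05. A fold on that scale understates the change of low genes. The design had assumed FPKM, and the test was kept for the size-factor values. edgeR 4.0.16 and DESeq2 1.42.0 were run on recovered reads as alternatives, and others covered pseudocount, filter, scaling, weights, covariates, the replicate block and each left-out library. The fit was tested on simulated data. Correlations used 100000 resamples over 12 libraries and exact permutation within groups of 6. Gene positions are GRCm38, transcript lengths GENCODE M21 and start regions RefSeq GRCm38.p6. A total of 25 gene names turned into dates were restored by gene ID. Named genes were the 7 subunits, detected other subunits (some not reported here), the 3 genes of smallest p in each other pathway list, the 2 genes most like each subunit, and, chosen after their values were seen, Gphn and Slc12a5. The members and lists were chosen with earlier results of these data known.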

Additional observations from a re-analysis of the deposited data

Results flagged for a closer look

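Gabrd in saline library 5 stood apart from the other 5 saline libraries, at 470 normalised reads with the next lowest at 724, a gap of 0.704 of the group's range, above the 95% critical value of Dixon's test. It was 1 flag among 26 groups examined, and chance flags about 1 in 20. The same library held 11208 reads of Ttr, the lowest Gabrb2 count (365) and the lowest length index (-0.65), and the part of these in the Gabrd value was not tested.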

How the results depend on the processing

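Under all 27 alternatives run on each gene, 0 of the 7 subunits passed an adjusted p of 0.05 (smallest 0.998), and the median of all genes shifted by less than 0.1 on the log2 scale under every scaling. Calls over all genes were not counted for the within-tag and length-index alternatives. Among the others, DESeq2 called 3, the one count that moved from 0. Gabra3 and Gabra4 kept a positive sign under all 27, and the other 5 genes changed sign under some, where each limma or DESeq2 value lay within its standard error of 0: Gabra5 -0.019 and Gabrd -0.042 with library weights, Gabra2 -0.0040 and Gabrb1 -0.0020 with an oligodendrocyte score as covariate, Gabrb2 -0.094 in edgeR and -0.10 in DESeq2, Gabrb1 -0.037 and Gabrb2 -0.26 within the time tag of day 0, and Gabra5 -0.065 and Gabrd -0.023 within day 5. The causes were not tested. Leaving out 1 library gave -0.040 to 0.070 for Gabra2, 0.00 to 0.10 for Gabra3, 0.04 to 0.14 for Gabra4, -0.017 to 0.074 for Gabra5, -0.060 to 0.17 for Gabrb1, -0.26 to 0.36 for Gabrb2 and -0.071 to 0.093 for Gabrd. The within-tag and length-index alternatives were chosen after seeing the data.

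Over all tested genes, same-numbered libraries were not consistently alike. Their correlations ran from -0.40 to 0.43, 2 of 6 were over 0.1 and 0 of 6 cocaine libraries correlated best with their own number. Since this check compares whole profiles, it cannot exclude a pairing or a batch shared by number for single genes. With the replicate block 0 of 13016 genes and 0 of 7 subunits were called, and Gabrb2 differed by 0.10 ± 0.37 (SE), against 0.10 ± 0.54 without it. The standard error was also smaller with the block in every other subunit except Gabra2, where it was 0.114 against 0.0996. Between 7 and 11 of 21 subunit pairs passed over the correlation alternatives, against 9, and the share of all pairs was not counted under them. The order of levels was the same 7 of 7 per kilobase without the column sum. The proteins of the subunits were not compared here.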
